A study of Saccharomyces cerevisiae with 6 samples.

Results

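The 5 genes *RAD14*, *RFA2*, *MCM21*, *NBL1* and *SRC1* of *Saccharomyces cerevisiae* act in DNA repair, at the kinetochore and at the nuclear envelope, and each carries a single annotated intron. They were taken by name out of 282 genes with junctions in the tables, and they account for 49 of the 5274 junctions listed. The libraries came from cells of the BY4741 background grown to mid-log phase in rich medium, YPD, and were made as stranded mRNA libraries. Every strain carried the deletion of *UPF1*, written upf1-delta::HIS3MX6, which removes a helicase needed for nonsense-mediated decay, so that transcripts with premature stop codons are kept. The *upf1Δ* group (3 libraries) carried only that deletion, and the *prp18Δupf1Δ* group (3 libraries) also carried prp18-delta::kanMX6. There was no strain with an intact *UPF1*, and *PRP18* and *UPF1* hold no intron, so the tables of junctions do not show either deletion. The labels do not say that the libraries of a strain were separate cultures, and the p values below measure the spread between libraries, which may be technical.

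An intron is removed in 2 steps. The 5′ splice site (5′SS) is first cut and joined to an adenosine, the branch point (BP), and the freed exon is then joined to the 3′ splice site (3′SS). Prp18p works in the second step together with Slu7p and Prp8p. Rad14p recognises damaged DNA in nucleotide excision repair and is the yeast relative of human XPA. Rfa2p is the middle subunit of replication protein A, which coats single-stranded DNA in replication and repair. Mcm21p belongs to the COMA complex of the kinetochore, and Nbl1p to the chromosomal passenger complex with Sli15p, Bir1p and the kinase Ipl1p. Src1p, also called Heh1p, lies in the inner nuclear membrane and is known to be made in a long and a short form from overlapping 5′SS.

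The tables gave from 791819 to 1502384 annotated junction reads a library, with fewer in each *prp18Δupf1Δ* library than in any *upf1Δ* library. Replicate 1 of each strain stood apart: counts of annotated junctions differed between replicate 1 and either other replicate by a chi-square per degree of freedom of 112 to 122 in *upf1Δ* and 113 to 114 in *prp18Δupf1Δ*, against 14.2 and 5.75 between replicates 2 and 3. Values with replicate 1 of both strains left out are therefore given where they changed a call or where the replicates of a member lay far apart.

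All 5 introns interrupt the coding sequence. Their sequences are shown so that the splice sites named below can be placed against the branch sequence and the annotated sites. They are read from the R64 genome, 5′ to 3′ on the coding strand, in lower case with the annotated 5′SS, the branch sequence and the annotated 3′SS in capitals, 12 nt of exon 1 before the intron and the start of exon 2 after it.
*RAD14*, chrXIII:666901-667029, minus strand: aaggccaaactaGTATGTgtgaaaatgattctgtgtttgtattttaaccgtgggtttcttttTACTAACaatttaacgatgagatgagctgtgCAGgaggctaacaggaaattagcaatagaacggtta
*RFA2*, chrXIV:48282-48422, plus strand: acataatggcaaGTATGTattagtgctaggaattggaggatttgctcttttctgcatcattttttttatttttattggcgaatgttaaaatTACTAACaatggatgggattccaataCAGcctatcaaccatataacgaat
*MCM21*, chrIV:1103798-1103913, plus strand: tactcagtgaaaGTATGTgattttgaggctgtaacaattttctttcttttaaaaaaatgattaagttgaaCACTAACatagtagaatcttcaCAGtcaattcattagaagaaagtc
*NBL1*, chrVIII:498699-498798, minus strand: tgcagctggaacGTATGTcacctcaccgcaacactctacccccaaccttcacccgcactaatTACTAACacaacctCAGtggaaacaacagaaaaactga
*SRC1*, chrXIII:211433-211591, plus strand: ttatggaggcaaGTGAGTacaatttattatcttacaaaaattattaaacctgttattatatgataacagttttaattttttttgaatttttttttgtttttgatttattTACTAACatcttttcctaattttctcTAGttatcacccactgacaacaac

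The introns were short. They measured 84 nt in *RAD14*, 108 nt in *RFA2*, 83 nt in *MCM21*, 67 nt in *NBL1* and 126 nt in *SRC1*, against a median of 165 nt over the 272 introns tested and of 96.5 nt over those outside ribosomal protein genes. *NBL1* had the shortest way from branch point to 3′SS, 11 nt, a distance of 11 nt or less being found in 6 of 272 introns, whose median was 33 nt. *MCM21* (19 nt) had the branch sequence CACTAAC, found in 7 of 272 introns, where 84.9% had TACTAAC. *RAD14* had 28 nt, and *RFA2* and *SRC1* had 23 nt each. Branch points here and below are the closest matches to TACTAAC, taken by the paper as most likely, and were not measured. *SRC1* had the 5′SS GTGAGT, found in 2 of 272 introns, where 78.7% had GTATGT, and it was the member whose 3′SS followed the most U, 6 of the last 10 nt against 1 of 10 in *NBL1*.

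Whether loss of Prp18p changed splicing at the annotated sites was examined by the splicing efficiency (SE), the annotated junction reads over the annotated plus unspliced reads of the intron. SE fell in *RAD14*, *MCM21*, *NBL1* and *SRC1*, from between 86.0% and 90.5% in *upf1Δ* to between 43.6% and 63.3% in *prp18Δupf1Δ*, and it was above 91% in every library for *RFA2*. The fall passed the test in 4 of the 5 introns and a rise in 0, beside a background of 81.6% of all 272 introns called lower. In all 5 introns every *prp18Δupf1Δ* library was below every *upf1Δ* library, which held for 82.7% of all introns. The median log2 change of spliced to unspliced reads was -2.10 over the 5 and -1.92 over all introns tested. Over the 168 introns tested outside ribosomal protein genes, to which the 5 belong, it was -2.16, with 144 called lower.

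*RAD14* had the largest fall of the 5 by annotated reads. With alternative junctions counted as spliced its log2 change was -2.51, beside -2.56 in *MCM21* and -2.38 in *SRC1*. Its *upf1Δ* libraries held 109, 105 and 142 annotated reads and 17.5, 11 and 15.5 unspliced reads, and its *prp18Δupf1Δ* libraries held 57, 46 and 32 annotated reads and 57, 52 and 62.5 unspliced reads. Each library without Prp18p thus had at least as many unspliced as annotated reads. SE was 88.9% ± 2.42 (SD, n = 3) in *upf1Δ* and 43.6% ± 8.57 (n = 3) in *prp18Δupf1Δ*. Spliced relative to unspliced reads fell by 3.39 on the log2 scale (SE of the change 0.413, adjusted p = 0.000244, edgeR), and 15 of 272 introns fell by more. With replicate 1 of both strains left out the change was -3.77.

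In *MCM21* spliced relative to unspliced reads fell to an extent that varied widely between libraries. The *upf1Δ* libraries had 253, 247 and 243 annotated reads and 16, 26.5 and 36 unspliced reads. The *prp18Δupf1Δ* libraries had 148, 107 and 98 annotated reads and 49.5, 128.5 and 86 unspliced reads. SE was 94.1%, 90.3% and 87.1% in *upf1Δ* against 74.9%, 45.4% and 53.3% in *prp18Δupf1Δ*, where replicate 1 lay far above the other two. The log2 change was -2.81 (SE 0.555, adjusted p = 0.00204, edgeR), and it was -3.02 with replicate 1 of both strains left out.

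*NBL1* had the most reads of the 4 introns that fell and the narrowest spread. The *upf1Δ* libraries gave 433, 858 and 865 annotated reads, within whose range the 702, 708 and 657 of *prp18Δupf1Δ* lay. Unspliced reads went from 51, 114.5 and 133.5 to 339, 446.5 and 415, and the strains were far apart. SE was 88.1% ± 1.42 (n = 3) and 63.3% ± 3.54 (n = 3), a log2 change of -2.10 (SE 0.255, adjusted p = 0.000244, edgeR).

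For *SRC1*, counted at its annotated 5′SS alone, the *upf1Δ* libraries had 105, 92 and 86 annotated reads, and the *prp18Δupf1Δ* libraries 186, 65 and 64. Unspliced reads were 13.5, 13.5 and 18.5 against 55, 61.5 and 60. The strains overlapped in annotated reads and not in unspliced reads. SE was 86.0% ± 3.31 (n = 3) and 60.1% ± 14.8 (n = 3), with 77.2% in replicate 1 and 51.4% and 51.6% in replicates 2 and 3 of *prp18Δupf1Δ*. The log2 change was -1.98 (SE 0.542, adjusted p = 0.00945, edgeR), and -2.39 without replicate 1 of both strains.

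*RFA2* had the smallest change of the 5. With Prp18p it had 365, 485 and 480 annotated reads and without it 314, 430 and 354, and unspliced reads were 16, 33.5 and 25 against 22, 42 and 34.5. SE was 95.8%, 93.54% and 95.05% with Prp18p and 93.45%, 91.1% and 91.1% without it, so that the highest library without Prp18p lay just under the lowest with it. The log2 change of -0.69 (SE 0.316) did not pass the test (adjusted p = 0.0711, edgeR), and 240 of 272 introns fell by more. It passed with the replicate number as a block (-0.68, adjusted p = 0.00984), with replicate 1 of both strains left out (-0.69, adjusted p = 0.00769) and without *prp18Δupf1Δ* replicate 1 (-0.83, adjusted p = 0.0276).

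**Figure D1:**
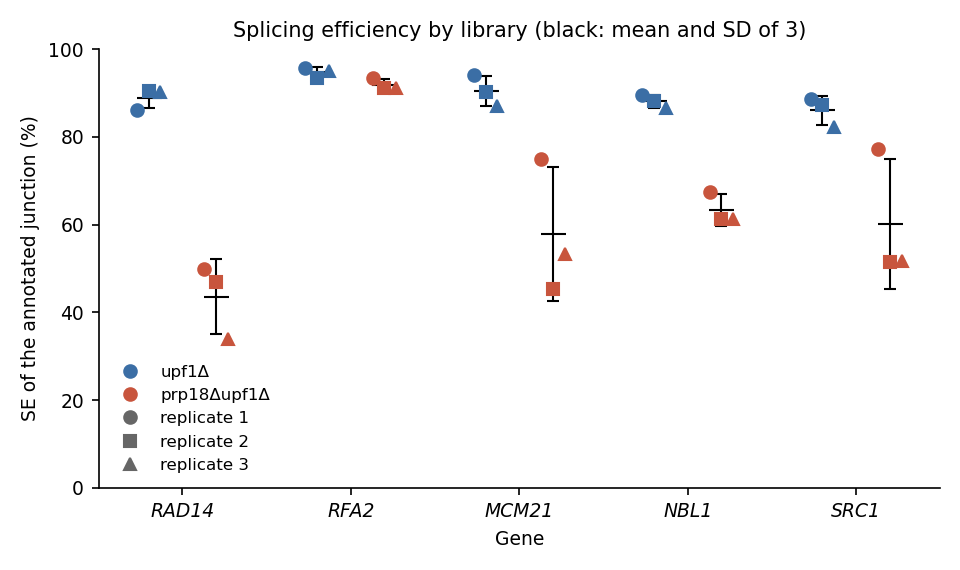
Splicing efficiency (SE, %) of the annotated junction in the 5 genes, with 1 point per library, blue for *upf1Δ* and red for *prp18Δupf1Δ*, marker shapes for replicates, and the mean ± SD of 3 in black. All red points lie below the blue ones of the same gene, with mean SE of 43.6% in *RAD14* and 91.9% in *RFA2* without Prp18p.

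The order of the 5 genes differed in its spread between strains. In *upf1Δ* the mean SE ran from 94.8% in *RFA2* through *MCM21*, *RAD14* and *NBL1* to 86.0% in *SRC1*, and the library ranges of every pair of neighbours in that order overlapped. In *prp18Δupf1Δ* the order was *RFA2* (91.9%), *NBL1* (63.3%), *SRC1* (60.1%), *MCM21* (57.9%) and *RAD14* (43.6%). *RFA2* lay apart from *NBL1* in its library range there, and every other pair of neighbours overlapped. The SE leaves out alternative junctions, which were many in *SRC1*. With those that passed the filters counted as spliced, *SRC1* came next after *RFA2* by its mean in both strains. It then had 93.8% in *upf1Δ* and 73.5% in *prp18Δupf1Δ*. Counting error alone gave each library's SE a 95% Wilson interval between 3.83 and 19.4 percentage points wide, widest where *RAD14* or *SRC1* had few reads.

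**Figure D2:**
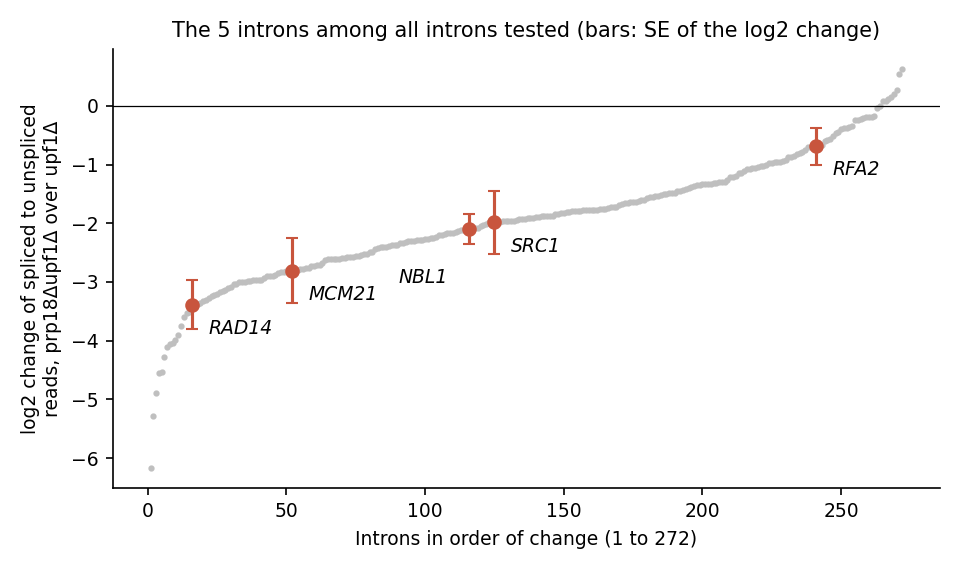
Log2 change of spliced to unspliced reads, *prp18Δupf1Δ* over *upf1Δ*, for all 272 introns tested in order of change, with the 5 introns in red and bars for the SE of the log2 change. *RAD14* at -3.39 lies near the lower end and *RFA2* at -0.69 near the upper end, while *NBL1* and *SRC1* lie near the middle.

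Which alternative sites were joined was followed by the fraction of annotated splicing (FAnS), the reads of an alternative junction over the annotated junction reads of the same intron. The tables listed 44 alternative junctions in the 5 genes, of which 15 passed the filters on overhang, mismatches and number of reads. These were 11 alternative 3′SS and 4 alternative 5′SS, and the other 29 junctions had from 1 to 14 reads each over the 6 libraries. FAnS rose in 7 of the 11 alternative 3′SS and fell in 1, beside a background of 32.0% of 562 alternative 3′SS called higher and 7.65% called lower. Of these 7, 4 reached the minimum of 6 reads only through *prp18Δupf1Δ*, the strain in which they were higher, and could hardly have been called lower. They are the ACG of *RAD14*, with 5 of its 65 alignments in *upf1Δ*, and the GAG directly after its annotated 3′SS and the TGG and GGG of *RFA2*, with 0 in *upf1Δ*. The count of 7, and the counts by position and by sequence that draw on the same sites, are a description only. Of the 4 alternative 5′SS, 1 fell and 0 rose, where 26.3% of 179 fell and 2.23% rose. Over all kinds of junction 186 rose and 95 fell of 884, and 148 rose and 122 fell when the reads were set against annotated plus unspliced reads.

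By position, the 6 upstream 3′SS that passed the filter rose, 3 of them having passed only through *prp18Δupf1Δ*, where 41.8% of 292 upstream sites rose, and 1 of 5 downstream sites rose, where 21.5% of 270 did. By sequence, the 6 sites that were not CAG or TAG rose (36.2% of 437), with 4 of them having passed in that way, while 1 of the 5 CAG or TAG sites did, the TAG of *MCM21* (17.6% of 125).

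*RAD14* had 7 of the 11 alternative 3′SS, on both sides of its annotated CAG. Its sequence from the branch to exon 2 is shown with these sites, since they lie closely packed. The capitals mark the branch sequence, then an ACG and a pair of GAG sites upstream of the annotated 3′SS, then the annotated CAG with a GAG directly after it, and then a further CAG and a TAG. The remaining site, a CAG, lies 128 nt downstream of the annotated 3′SS and beyond the stretch shown.
*RAD14* branch to exon 2, chrXIII:666901-666967, minus strand: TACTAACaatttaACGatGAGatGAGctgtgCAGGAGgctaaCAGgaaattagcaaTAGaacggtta

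The site nearest the branch point was the ACG 10 nt from it and 18 nt upstream of the annotated 3′SS. It had 2, 1 and 0 reads in *upf1Δ* and 21, 15 and 13 in *prp18Δupf1Δ*. FAnS was 0.929% ± 0.918 (n = 3) and 36.7% ± 4.01 (n = 3), and the pooled ratio was 43.1 with a 95% counting interval of 13.9 to 216 (Clopper-Pearson), wide because *upf1Δ* gave 3 reads in all. The libraries of the strains did not overlap, and the rise of 5.24 on the log2 scale (SE 0.624) passed the test (adjusted p = 1.95e-10, edgeR). Since this ACG reached the minimum of reads only through *prp18Δupf1Δ*, that p value is a description only. The log2 rise was also fitted with libraries left out. It was 6.11 without *upf1Δ* replicate 1, 4.57 without *upf1Δ* replicate 3 and 6.08 without replicate 1 of both strains.

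The GAG 15 nt from the branch point had a mean FAnS in *prp18Δupf1Δ* that differed from that of the ACG by less than its spread. It had 3, 4 and 1 reads in *upf1Δ* and 24, 12 and 17 in *prp18Δupf1Δ*, so FAnS went from 2.42% ± 1.58 (n = 3) to 40.4% ± 13.6 (n = 3). This was 16.7-fold, and 4.05 on the log2 scale (SE 0.531, adjusted p = 3.47e-09, edgeR). In *prp18Δupf1Δ* replicate 3 its FAnS reached 53.1%, where 17 reads joined this GAG and 32 the annotated CAG.

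The next GAG, 20 nt from the branch point, had 4, 3 and 0 reads in *upf1Δ* and 5, 7 and 3 in *prp18Δupf1Δ*. Its reads overlapped between the strains, while its FAnS did not. FAnS rose from 2.18% ± 1.93 to 11.1% ± 3.56 (n = 3 each; 2.43 on the log2 scale, adjusted p = 0.00604, edgeR). Set against annotated plus unspliced reads, the change was 1.42 and did not pass (adjusted p = 0.134). It was 3.07 without *upf1Δ* replicate 1 and 3.28 without replicate 1 of both strains, and it did not pass without *upf1Δ* replicate 3 (1.73, adjusted p = 0.0565) or *prp18Δupf1Δ* replicate 2 (0.0625).

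Downstream of the annotated 3′SS the picture was mixed. The GAG directly after the annotated CAG had 0 reads in each *upf1Δ* library, where a count of 0 over the group allows a FAnS of up to 0.843%, and 1, 3 and 2 reads in *prp18Δupf1Δ*. Its FAnS was 5.27-fold higher in *prp18Δupf1Δ*, counted against 3 reads over the *upf1Δ* group (adjusted p = 0.00324, edgeR). The fold takes the few *prp18Δupf1Δ* reads as counted and is not a lower limit. Since this GAG reached the minimum of reads only through *prp18Δupf1Δ*, its p value is a description only. The CAG 11 nt downstream had 9, 9 and 5 reads against 7, 5 and 7, and the TAG 25 nt downstream had 10, 15 and 11 against 10, 10 and 7. Their FAnS was 6.78% ± 2.83 and 15.0% ± 5.99 for the CAG, and 10.4% ± 3.44 and 20.4% ± 2.46 for the TAG (n = 3 each). Neither passed the test (adjusted p = 0.110 and 0.101, edgeR), although the libraries of the strains did not overlap in either. Against annotated plus unspliced reads their changes were 0.10 and -0.04 on the log2 scale. The CAG 128 nt downstream had 0, 4 and 1 reads against 0, 0 and 1 (adjusted p = 0.723).

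**Figure D3:**
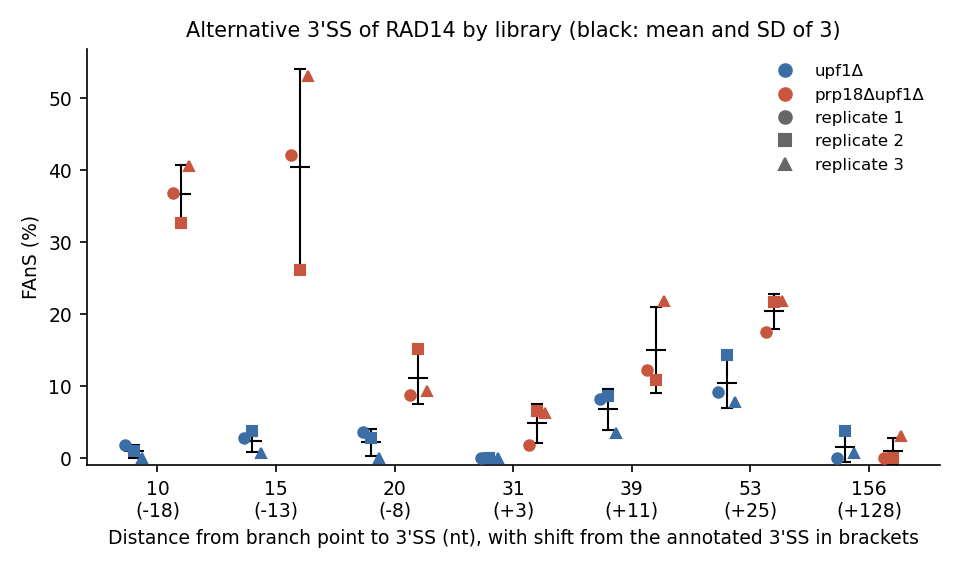
FAnS (%) of the 7 alternative 3′SS of *RAD14* that passed the filters, by their distance from the branch point in nt with the shift from the annotated 3′SS in brackets, with 1 point per library, blue for *upf1Δ* and red for *prp18Δupf1Δ*, and the mean ± SD of 3 in black. The sites 10 and 15 nt from the branch point reach means of 36.7% and 40.4% without Prp18p beside means of 0.929% and 2.42% with it.

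The reads of *RAD14* were placed unevenly by the 2 aligners. The annotated junction was placed by STAR alone in 448 of 458 *upf1Δ* alignments and 164 of 167 *prp18Δupf1Δ* alignments, with none placed there by both. The CAG 11 nt downstream was placed by BBMap alone in 40 of 48 alignments and the GAG directly after the annotated CAG in 7 of 7. The sites at 10, 15 and 20 nt from the branch point were placed by both aligners in 60 of 65, 81 of 81 and 29 of 29 alignments. The annotated junction is the denominator of FAnS at all 7 sites, the upstream ones included. How far placement moved the FAnS of any of them, or the shares given next, was not tested.

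Over its 7 alternative 3′SS that passed the filters, 20.4%, 25.5% and 11.2% of the spliced reads of *RAD14* used an alternative 3′SS in *upf1Δ*, against 54.4%, 53.1% and 61.0% in *prp18Δupf1Δ*. Alternative sites thus took more spliced reads than the annotated one in every library without Prp18p and in none with it. The counts without Prp18p were 68 against 57, 52 against 46 and 50 against 32, close together in replicates 1 and 2. No counting interval was drawn for this share. The exact two-sided permutation test of this share gave p = 0.1, the smallest that 3 libraries against 3 can give. The share includes the ACG and the GAG directly after the annotated CAG, which passed the filters only through *prp18Δupf1Δ*. Over all 16 alternative 3′SS listed, with no filter, the mean share was 20.4% in *upf1Δ* and 56.8% in *prp18Δupf1Δ*, with the same p. Counted over all reads at the intron, *prp18Δupf1Δ* held 28.0% ± 5.12 annotated, 35.5% ± 1.58 alternative and 36.4% ± 6.16 unspliced reads, and *upf1Δ* 73.5% ± 6.45, 17.4% ± 6.75 and 9.13% ± 2.06 (SD, n = 3). With alternative junctions counted as spliced, the log2 change of spliced to unspliced reads was -2.51 (adjusted p = 0.00056, edgeR).

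In *MCM21* the single alternative junction that passed the filters joined a TAG 11 nt before the annotated CAG. This TAG lay only 8 nt from the predicted branch point, the shortest distance among the 15 junctions. The stretch is shown with the branch sequence, this TAG and the annotated CAG in capitals.
*MCM21* branch to exon 2, chrIV:1103868-1103913, plus strand: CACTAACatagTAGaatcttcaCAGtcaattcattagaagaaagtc

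This TAG had 5, 4 and 5 reads in *upf1Δ* and 42, 26 and 11 in *prp18Δupf1Δ*. FAnS was 1.98%, 1.62% and 2.06% in *upf1Δ* and 28.4%, 24.3% and 11.2% in *prp18Δupf1Δ*, where replicate 3 was the lowest and still well above *upf1Δ*. The means of 1.88% ± 0.233 and 21.3% ± 8.96 (n = 3 each) differed 11.3-fold (3.48 on the log2 scale, SE 0.451, adjusted p = 2.41e-09, edgeR). Without replicate 1 of both strains the log2 change was 3.25 (adjusted p = 0.00164). The share of spliced reads at this site rose from 1.85% ± 0.225 to 17.2% ± 6.33 (n = 3 each, exact permutation p = 0.1, the smallest possible).

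*NBL1* moved the other way. Its alternative 3′SS is a CAG 12 nt downstream of the annotated one, at 23 nt from the branch point, and both are in capitals below after the branch sequence.
*NBL1* branch to exon 2, chrVIII:498699-498736, minus strand: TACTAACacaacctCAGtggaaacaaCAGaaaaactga

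The downstream CAG had 47, 86 and 102 reads in *upf1Δ* and 9, 9 and 10 in *prp18Δupf1Δ*. FAnS was 10.9%, 10.02% and 11.8% against 1.28%, 1.27% and 1.52%, so that the strains lay far apart with little spread in either. The mean FAnS of *prp18Δupf1Δ* was 0.125 of that of *upf1Δ*, a log2 change of -2.99 (SE 0.354, adjusted p = 1.63e-10, edgeR). The share of spliced reads at the downstream CAG fell from 9.81% ± 0.719 to 1.34% ± 0.138 (n = 3 each, exact permutation p = 0.1, the smallest possible). It was the only one of the 11 alternative 3′SS in the 5 genes called lower.

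*RFA2* used 2 sites without Prp18p that had no read in *upf1Δ*. They are a TGG and a GGG that overlap, 10 and 11 nt from the branch point, before the annotated CAG by 13 and 12 nt, and the stretch shows them as the capitals TGGG between the branch sequence and the annotated 3′SS.
*RFA2* branch to exon 2, chrXIV:48373-48422, plus strand: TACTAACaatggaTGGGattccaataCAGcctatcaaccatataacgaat

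The TGG had 0, 0 and 0 reads in *upf1Δ* and 1, 6 and 2 in *prp18Δupf1Δ*, and the GGG had 0, 0 and 0 against 2, 2 and 4. A floor of 3 reads over the *upf1Δ* group allows a FAnS of up to 0.226%. Against that floor FAnS was 3.63-fold higher at the TGG and 3.23-fold higher at the GGG. These folds take the few *prp18Δupf1Δ* reads as counted and are not lower limits. Adjusted p was 0.00621 and 0.00898 (edgeR), but the TGG did not pass without *prp18Δupf1Δ* replicate 2 (0.0844), nor the GGG without replicate 3 (0.0672) or without replicate 1 of both strains (0.0627). Both sites reached the minimum of reads only through *prp18Δupf1Δ*, so these p values are a description only. Usage was low in all libraries. Both sites together took 0.946%, 1.82% and 1.67% of the spliced reads in *prp18Δupf1Δ*.

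*SRC1* has no alternative 3′SS among the junctions that passed, and its alternative splicing was at the 5′SS. The exon and intron bases around its 5′SS are shown with 3 overlapping sites in capitals. The annotated GTGAGT begins 4 nt into the run, GCAAGT begins it, and GTACAA ends it.
*SRC1* 5′SS, chrXIII:211433-211464, plus strand: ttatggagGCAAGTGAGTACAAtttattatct

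The GCAAGT site, 4 nt upstream, carried more reads than the annotated site in each *upf1Δ* library. It had 159, 115 and 135 reads in *upf1Δ*, beside 105, 92 and 86 at the annotated GTGAGT, and 117, 75 and 54 in *prp18Δupf1Δ*, beside 186, 65 and 64. Its FAnS was 151%, 125% and 157% with Prp18p, against 62.9%, 115% and 84.4% without it. The strains did not overlap, although replicate 2 without Prp18p came close to replicate 2 with it. GCAAGT took 59.0% ± 2.98 of the reads of both sites in *upf1Δ* and 46.0% ± 7.48 in *prp18Δupf1Δ* (n = 3 each, exact permutation p = 0.1, the smallest possible).

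The log2 change of GCAAGT was -0.80 (SE 0.289, adjusted p = 0.0254, edgeR). The call did not hold by DESeq2 (adjusted p = 0.256) or without replicate 1 of both strains (-0.49, adjusted p = 0.261), and it was lost in 8 of 13 alternatives. Among these were the fits without replicate 1 or 3 of *upf1Δ* and without replicate 1 or 3 of *prp18Δupf1Δ* (adjusted p from 0.0736 to 0.226). Against annotated plus unspliced reads the change was -1.30 (adjusted p = 0.000381). BBMap alone placed 772 of the 827 GCAAGT alignments and STAR alone the other 55, in like shares of 93.9% and 92.3% by BBMap alone in *upf1Δ* and *prp18Δupf1Δ*. The annotated site was placed by both aligners or by STAR alone.

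Splicing of *SRC1* at either of these 5′SS also fell. Counting junction reads of both sites and unspliced reads, 95.1%, 93.9% and 92.3% were spliced in *upf1Δ* and 84.6%, 69.5% and 66.3% in *prp18Δupf1Δ*. With all alternative junctions counted as spliced, the log2 change of spliced to unspliced reads was -2.38 (adjusted p = 0.002, edgeR). The third site, GTACAA, had 2, 1 and 0 reads against 2, 1 and 0.

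GCAAGT placed in the same way, 4 nt before the annotated 5′SS and overlapping it, occurred in 2 of 272 introns (0.735%), read on the coding strand. These were *SRC1* and *RFA2*, whose annotated 5′SS differ. At *RFA2* it had 1, 0 and 5 reads in *upf1Δ* and 0, 1 and 0 in *prp18Δupf1Δ* (adjusted p = 0.248, edgeR). *NBL1* had a site in the same place, GAACGT, with 0, 1 and 1 against 0, 1 and 0 reads (adjusted p = 0.755). Neither change passed.

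**Figure D4:**
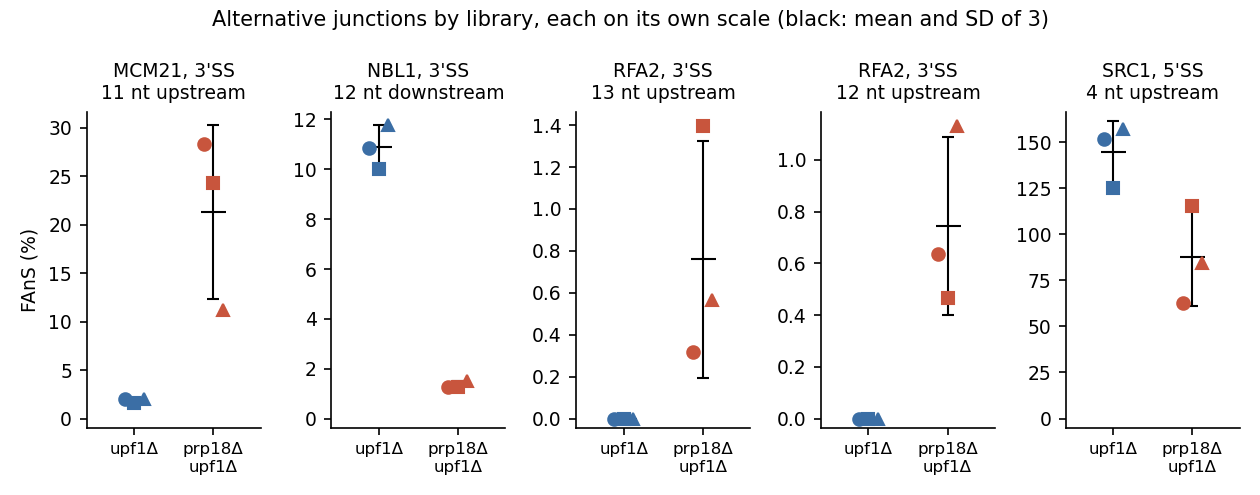
FAnS (%) of an alternative 3′SS in *MCM21* and *NBL1*, of both upstream 3′SS in *RFA2* and of the upstream 5′SS in *SRC1*, each panel on its own scale, with 1 point per library (circle, square and triangle for replicates 1, 2 and 3), blue for *upf1Δ*, red for *prp18Δupf1Δ*, and the mean ± SD of 3 in black. *MCM21* and *RFA2* are higher without Prp18p, *NBL1* is lower at 1.36% against 10.9%, and *SRC1* is lower with a wider spread.

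Most of these junctions change the reading frame. Of the 15 alternative junctions, 4 shift the intron end by a multiple of 3 nt and 3 of them read through to the annotated stop. These are the GAG directly after the annotated 3′SS of *RAD14* (370 codons in place of 371), the GGG of *RFA2* (277 in place of 273) and the downstream CAG of *NBL1* (69 in place of 73). The ACG of *RAD14* keeps the frame but meets a stop after 11 codons, and the GAG sites at 15 and 20 nt meet one after 15 and 17 codons. The TAG of *MCM21* gives 24 codons in place of 368. At *SRC1* the annotated junction gives 834 codons and GCAAGT 687, in another frame after exon 1. Left unspliced, the reading frame ends after 33 codons in *RAD14*, 5 in *RFA2*, 19 in *MCM21*, 42 in *NBL1* and 656 in *SRC1*. These are readings of the R64 sequence, and no protein was measured.

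**Figure D5:**
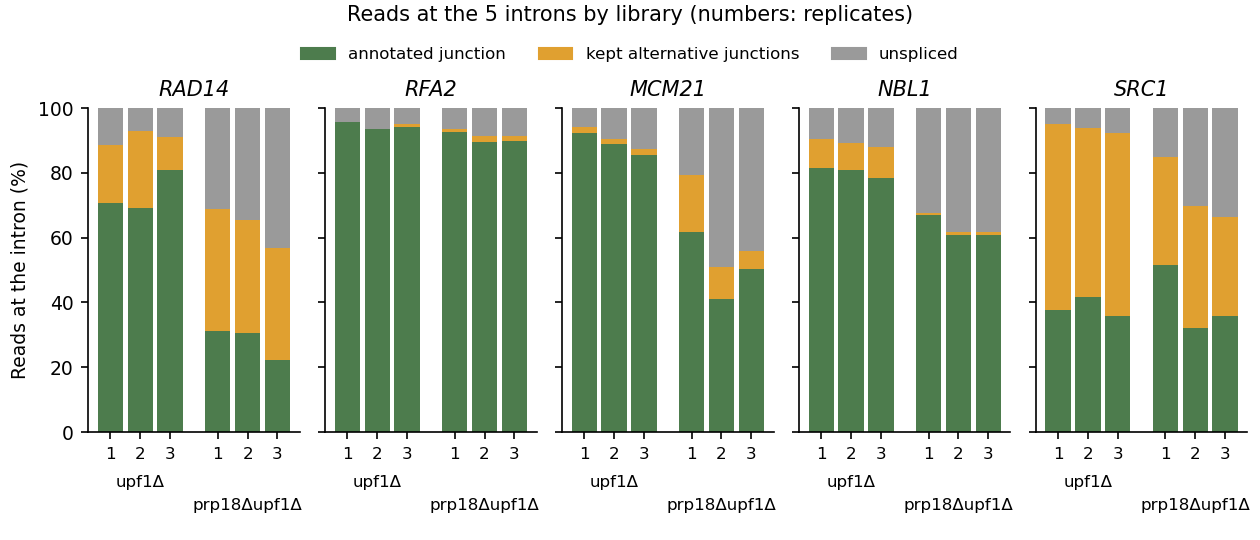
Share (%) of the reads at each intron that were annotated junction reads (green), alternative junction reads that passed the filters (orange) or unspliced (grey), with 1 bar per library and replicate numbers under the bars. The orange part grows in *RAD14* to 35.5% on average without Prp18p and shrinks in *NBL1* from 8.80% to 0.88%, and in *SRC1* it is the largest part in each *upf1Δ* library.

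Whether transcript level moved with splicing was examined from annotated spliced plus unspliced reads, as CPM, counts scaled to a common total over all intron-containing transcripts with TMM factors. *NBL1* and *SRC1* were higher in *prp18Δupf1Δ* and the other 3 did not pass in either direction, beside a background of 16.2% of 272 called higher. *NBL1* had 371, 630 and 623 CPM in *upf1Δ* and 824, 1042 and 1091 in *prp18Δupf1Δ*, with no overlap (log2 change 0.86, SE 0.234, adjusted p = 0.0343, edgeR). *SRC1* had 90.5, 68.7 and 64.9 against 191, 114 and 126, again without overlap (0.95, SE 0.267, adjusted p = 0.0391). Both calls held with the replicate number as a block (adjusted p = 4.97e-05 and 0.000587), which raised the share of transcripts called higher to 30.1%. Without replicate 1 of both strains the changes were 0.77 and 0.84 (adjusted p = 7.86e-08 and 5.43e-05, edgeR). There 110 of 272 transcripts were called higher. Both also passed by DESeq2 (adjusted p = 0.00787 and 0.0321), where 49 of 272 were called higher.

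These calls depended on single libraries and on which reads were counted. *NBL1* did not pass without replicate 2 or 3 of either strain (adjusted p from 0.0641 to 0.145), nor *SRC1* without replicate 2 or 3 of *upf1Δ* or replicate 3 of *prp18Δupf1Δ* (0.0587 to 0.139). With the alternative junction reads of each intron added, *NBL1* stood at 0.73 (adjusted p = 0.0627) and *SRC1* at 0.35 (adjusted p = 0.366), and with annotated spliced reads alone at 0.63 (0.106) and 0.72 (0.161). *RAD14* had a mean of 90.1 ± 12.96 CPM in *upf1Δ* and 91.5 ± 3.73 in *prp18Δupf1Δ* (log2 change 0.02, adjusted p = 0.951), but by annotated spliced reads alone it fell by 0.76 on the log2 scale (adjusted p = 0.0268). *MCM21* had 186 ± 17.7 and 186 ± 28.1 (log2 change 0.00, adjusted p = 0.993), and by annotated spliced reads alone its change was -0.44 (adjusted p = 0.0715). *RFA2* had 314 ± 21.9 and 362 ± 84.8 (0.20, adjusted p = 0.523), and without replicate 1 of both strains its change of 0.34 passed (adjusted p = 0.00504).

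The introns nearest to each member in their log2 ratio of spliced to unspliced reads over the 6 libraries were found by root mean square distance among 267 others. *RAD14* was nearest to *VPS75*, a histone chaperone gene (0.37), and *PSP2* (0.49), with mean SE of 45.6% and 49.8% in *prp18Δupf1Δ*. *NBL1* was nearest to *BET1*, which codes for a SNARE (0.12), and *ERV1*, a sulfhydryl oxidase gene (0.25). *MCM21* was nearest to *SEC17*, also of vesicle fusion (0.44), and *UBC8* (0.48), and *SRC1* to *RPL24B* (0.35) and *PBA1* (0.35). *RFA2* was nearest to a pair of ribosomal protein genes, *RPL35B* (0.28) and *RPS30B* (0.33), with mean SE of 91.0% and 89.5% without Prp18p beside its own 91.9%.

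Other intron-containing genes of the same processes, taken from chosen lists, fell in most cases. The lists are not complete, and *NSP1* (-2.59) and *VPS75* (-3.16) were in none of them. The introns of *DYN2* were counted both under mitosis and under the nuclear envelope. Of 5 tested introns in genes of DNA repair and damage tolerance 3 fell, among them *MMS2* of postreplication repair with a log2 change of -2.68 (adjusted p = 0.00375, edgeR), while the meiotic *HOP2* had -0.44 (adjusted p = 0.651), and *SAE3* and *MND1* were not tested. All 8 introns in genes of mitosis and chromosome segregation fell, from -1.22 in *GLC7*, the catalytic subunit of protein phosphatase 1, to -3.17 in *CIN2*, a tubulin folding factor. Of 6 introns in genes of the nuclear envelope and pore 5 fell, *MTR2* of mRNA export with -2.31 among them, and 1 intron of *SUS1* had -1.30 (adjusted p = 0.0768). All 4 in genes of chromatin and telomeres fell, from -1.63 in *ARP9* to -2.81 in *CGI121*. The median log2 change was -1.72, -1.76, -1.67 and -2.21 in these lists, beside -1.92 over all introns and 81.6% called lower. Introns outside ribosomal protein genes had a median of -2.16. Alternative 3′SS rose at 0 of 5 sites in the first list, 4 of 8 in the second, 5 of 15 in the third and 3 of 8 in the fourth, with 2 falling in the fourth, beside 32.0% of all alternative 3′SS called higher and 7.65% called lower.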

How the data were processed

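The 6 mRNA libraries were compared, 3 a strain. Per the labels, the authors trimmed reads with cutadapt 1.18 and aligned them to R64 with STAR 2.7.0d, and the methods add BBMap, the better alignment of each read being chosen. Per junction, the authors deposited a count of reads, neither normalized nor pooled. The deposited unspliced reads are an estimated count, the reads across both unspliced splice sites divided by 2. The deposited SE of annotated junctions is a fraction. The deposited FAnS is a ratio of reads, as is the deposited SE of an alternative junction. SE and FAnS were recomputed here from the counts and matched. The starts and ends in the tables are the first and last base of an intron in R64, and splice sites of all 5274 junctions matched the genome.

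Junctions passed with a perfect overhang of 10 nt upstream and 40 nt downstream, at least 50% of reads without a mismatch within 10 nt, and at least 6 reads over the 6 libraries. Introns were tested with at least 10 reads in all and 1 in every library. Tests were edgeR 4.0.16 quasi-likelihood tests in R 4.3.3 over all introns or junctions, on numerator and denominator reads with library terms, or with TMM scaling for transcript level, Benjamini-Hochberg adjusted with a threshold of 0.05. For annotated splicing the reads at both unspliced sites were added, and elsewhere unspliced reads were rounded. DESeq2 1.42.0 and limma 3.58.1 served as alternatives, and shares were tested by exact permutation with scipy 1.17.1, 20 assignments in all. PCR reads are not independent molecules, so intervals and floors (3 reads) cover counting error only.

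The replicate numbers were checked as a pairing: deviations from the strain means correlated at 0.58, 0.30 and 0.38 for equal numbers, while replicates 2 and 3 also correlated across numbers, at 0.34 and 0.37. On simulated data 56.8% of 2-fold and 97.9% of 4-fold changes were found among 272 introns, 28% and 72% among 884 junctions, and 93.3% and 100% among 272 transcripts. Of unchanged introns, junctions and transcripts 2.44%, 0.877% and 0% were called. The simulation drew all libraries alike, with 1 common spread and changes in either direction. In the data replicate 1 stood apart and most introns fell, so these rates may not hold there. Named are all 5 genes, each junction of them that passed, the 2 nearest introns of each, and the largest and smallest change of each gene list. The members and the lists were chosen with earlier results of these data known.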

Additional observations from a re-analysis of the deposited data

How the results depend on the processing

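Of 318 values of single genes and junctions under the alternatives, 272 kept their direction and their side of the threshold, 27 lost the call, 4 gained it and 15 changed sign. The calls of lower annotated splicing in *RAD14*, *MCM21*, *NBL1* and *SRC1* held in all 12 alternatives. For annotated splicing and transcript level, the alternative with no minimum of reads took in the same introns and could not differ. The calls of the *MCM21* TAG, the *NBL1* CAG and the *RAD14* GAG at 15 nt held in all 13. The *RAD14* ACG at 10 nt kept its side of the threshold in all 13. It passed the filters only through *prp18Δupf1Δ*, so this is a description only. Unspliced reads at either splice site alone were planned and could not be run, since the deposited count combines both sites. Counting alternative junctions as spliced, and adding them to the transcript level, were chosen after seeing the data. The cause of the differences below was not tested. The calls at the *RFA2* sites rest on 8 and 9 reads.

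Leaving out replicate 1 of both strains gave 118 alternative junctions called higher and 46 lower (1 lower among the 5 genes) in place of 186 and 95 (2), and 110 transcripts called higher and 92 lower in place of 44 and 30. The replicate block gave 82 and 77 transcripts, kept annotated splicing at 247 introns called lower against 222, and changed no other call of the 5 genes than that of *RFA2*. Junctions called lower were 53 by DESeq2, 55 with no minimum of reads and 62 without the filters on overhang and mismatches, each with 1 among the 5 genes. With at least 20 reads 122 junctions were called higher, 4 of them in the 5 genes in place of 7. Of the 5 genes, the number with a higher transcript level was 1 with no scaling, 0 with annotated spliced reads alone and 0 with alternative junction reads added, in place of 2. Leaving out 1 library at a time gave 55 to 88 junctions called lower (1 to 2 in the 5 genes), 26 to 59 transcripts higher (0 to 2 in the 5 genes) and 10 to 42 lower. The count of junctions called lower moved by over 1.5 times without replicate 1 or 3 of *prp18Δupf1Δ*, and that of transcripts called lower without replicate 2 or 3 of either strain.

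Changes of sign were all between values that did not pass, except that *RAD14* transcript level by annotated spliced reads alone was -0.76 on the log2 scale. The level of *RAD14* was -0.023 by DESeq2 and by RLE scaling, and -0.094 to 0.14 without 1 library. That of *MCM21* was 0.070 with no scaling, 0.13 with alternative junction reads, 0.19 without replicate 1 of both strains and -0.092 to 0.12 without 1 library. The *SRC1* GTACAA was 0.31 without replicate 1 of both strains and -0.67 to 0.52 without 1 library. The *RAD14* CAG at 128 nt was -2.89 to 0.92 without 1 library, and its TAG was -0.036 against annotated plus unspliced reads.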
